A study of Mus musculus with 3 samples.

Results

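Interferon regulatory factors (IRFs) are transcription factors that bind short repeats of GAAA in DNA through a domain with conserved tryptophans. Some wait in the cytoplasm until a sensor of microbial nucleic acid or lipopolysaccharide triggers their phosphorylation, some are made in response to interferon, and some set the identity of myeloid and lymphoid cells together with other factors. In macrophages they are known for switching on interferon genes, interferon-stimulated genes and antigen presentation. The family was chosen by name as Irf1, Irf2, Irf3, Irf4, Irf5, Irf7, Irf8 and Irf9, and all 8 were found among the 14811 genes listed. In the GENCODE M21 annotation, Irf1 lies on chromosome 11, Irf2 and Irf8 on chromosome 8, Irf3 and Irf7 on chromosome 7, Irf4 on chromosome 13, Irf5 on chromosome 6 and Irf9 on chromosome 14.

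The series holds 1 group of 3 libraries, from macrophages sorted by flow cytometry out of the kidneys of 3 C57BL/6J mice, numbered by the labels as mouse 1, 2 and 3. The mice carried no named allele, had received phosphate-buffered saline (PBS) into a vein, and gave their kidneys 1 h later and were dissociated with enzymes before the sort. The sources used here give neither the ages of the mice nor the markers of the sort. With no second condition, the results are levels of the 8 transcripts, their spread over 3 mice, their ratios within a library and their position among all genes.

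Levels are normalised reads, which are reads per gene divided by a size factor for the library. Summed over the table, mouse 1 had 50951549 reads, mouse 2 had 56718534 and mouse 3 had 50646558. A floor of 3 reads was set for a count of 0, worth 2.42, 1.66 and 2.11 normalised reads. Intervals and floors cover counting error only, since the amplified reads carry no molecular identifiers. All 10 macrophage markers, such as Adgre1, Csf1r, Cd68 and Lyz2, were at 1000 normalised reads or more in every mouse, against 14.7% of the listed genes, and their summed level ran from 317028 to 471577. Of other cell types, the T and NK cell markers found (2 of 7) summed to at most 1.11 with Cd3e at 0 throughout, and the neutrophil markers (2 of 5) to at most 19.4 with S100a9 at 0 throughout. Endothelial markers (5 of 5) summed to 135 to 1391 and monocyte markers (3 of 4) to 8941 to 30679, most of it Ccr2 (8939 to 29145). All 3 monocyte markers were highest in mouse 1. Ly6c2 (1069, 2.77 and 0.705) and Plac8 (465, 0 and 0 in mice 1, 2 and 3) were found almost only there. The 7 kidney epithelial markers summed to 4248, 18841 and 2045 in mice 1, 2 and 3, so mouse 2 had the highest sum. Of these markers, 6 were highest in mouse 2, while Umod was highest in mouse 3 (40.3, 598 and 998).

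The regulatory sequences of 3 members are shown because interferon signalling reaches IRF genes through such elements. RefSeq windows of 300 bases, from 250 before to 50 after a transcription start on build GRCm38.p6, were at hand for all 8 members (11 windows, as Irf1, Irf8 and Irf9 have alternative starts). They were searched on both strands for the gamma-activated site TTCNNNGAA, an element of interferon-gamma signalling, for the core of the interferon-stimulated response element, GAAANNGAAA, and for the composite ETS/IRF element GGAANNGAAA, where PU.1 pairs with IRF4 or IRF8. The gamma-activated site is its own reverse complement. The segments that hold matches are given 5′ to 3′ on the plus strand, with the matched letters in capitals: chr11:53769899-53769957 for Irf1, chr8:46739495-46739554 for Irf2 and chr8:120736162-120736238 for Irf8.
Irf1: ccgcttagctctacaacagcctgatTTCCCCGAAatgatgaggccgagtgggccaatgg
Irf2: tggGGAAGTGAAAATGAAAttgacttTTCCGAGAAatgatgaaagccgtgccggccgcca
Irf8: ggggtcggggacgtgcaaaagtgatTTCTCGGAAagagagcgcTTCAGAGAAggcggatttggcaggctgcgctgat
The Irf1 match begins 90 bases before the start (TTCCCCGAA). Irf8 holds a pair of matches, TTCTCGGAA and TTCAGAGAA. Irf2 holds TTCCGAGAA and, further upstream, an ETS/IRF element (GGAAGTGAAA) that overlaps a response element core (GAAAATGAAA). The gamma-activated site was thus found in 3 of the 8 members, against 9.55% of the 27025 genes in the table, and each of the other elements in 1 of 8, against 3.99% for the response element core and 3.16% for the composite element. No letters of these motifs were found in the windows of Irf3, Irf4, Irf5, Irf7 and Irf9, and a match is a run of letters, not a bound site.

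The macrophages carried mostly Irf1, Irf2 and Irf5. Transcripts of different genes were compared per kb of exon, since longer transcripts collect more reads. On that scale Irf1 averaged 1912 ± 1664, Irf2 1298 ± 654 and Irf5 1203 ± 687 normalised reads per kb (SD, n = 3 mice). These 3 genes made up 85.3%, 79.4% and 63.3% of the summed level of the family in mice 1, 2 and 3 (mean 76.0% ± 11.4, SD, n = 3). Irf9 followed at 488 ± 459 and Irf8 at 205 ± 122 normalised reads per kb, then Irf7 at 423 ± 569 and Irf3 at 86.9 ± 76.5, in the order of mean log2 level. Irf4 closed the order, with a single mouse above 0. The other 7 of the 8 members were above 0 in every mouse, against 71.0% of the listed genes. Irf1, Irf2 and Irf5 were at 1000 normalised reads or more in every mouse, against 14.7% of the listed genes. The median of the 8 mean levels was 2114 normalised reads, beside 560.0 over all tested genes.

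**Figure D1:**
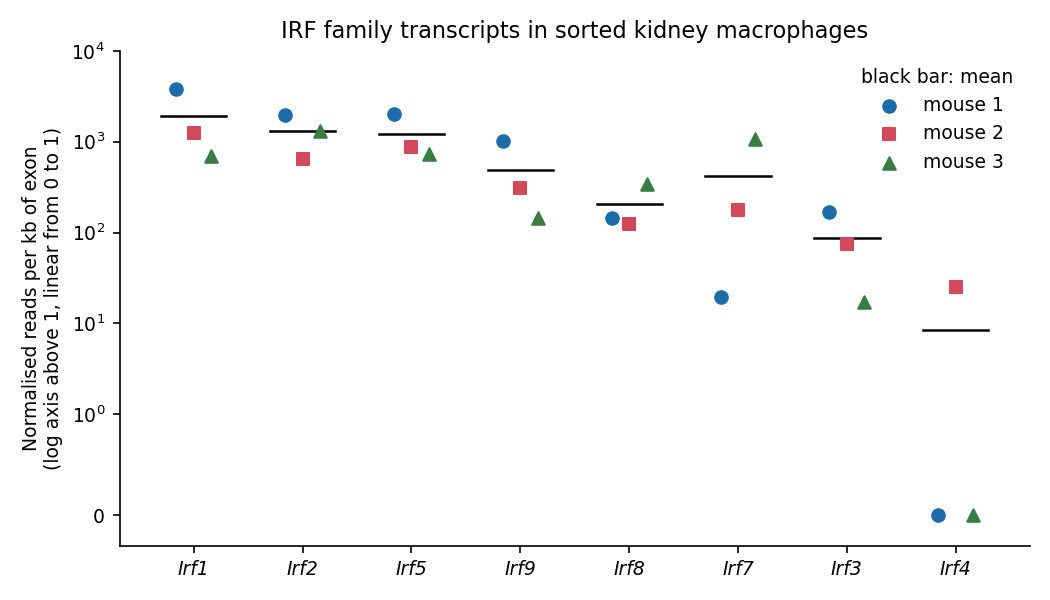
Level of each IRF in each mouse, in normalised reads per kb of exon on a log axis that turns linear below 1, with members ordered by mean log2 level. Points are mice 1 to 3 and the black bar is their mean. Irf1, Irf2 and Irf5 lie between 645 and 3808 in every mouse, while Irf7 spans 19.4 to 1073 and Irf4 is above 0 in mouse 2 alone.

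Neighbours in this order were mostly not separated. The ranges of the 3 mice overlapped for all 7 neighbouring pairs. Within libraries, the higher gene led in 3 of 3 mice only for Irf5 over Irf9 (log2 difference 1.61 ± 0.40, SE from the pair's own spread, n = 3) and Irf3 over Irf4 (5.89 ± 2.36). Irf1 led Irf2 in 2 of 3 mice (0.33 ± 0.62), Irf2 led Irf5 in 1 of 3 (0.11 ± 0.38), Irf9 led Irf8 in 2 of 3 (0.95 ± 1.19), Irf8 led Irf7 in 1 of 3 (0.25 ± 1.35) and Irf7 led Irf3 in 2 of 3 (1.36 ± 2.61). These differences were picked by the order itself and were not tested.

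Compared with the rest of the transcriptome, 4 members stood above the median gene of their libraries and 1 below, the last by a value that depends on the added 1. The test covered 11603 genes with a mean of 10 or more normalised reads. It took log2(normalised reads + 1) per kb, subtracted the median of the library and asked with limma whether the mean over 3 mice differed from 0, with Benjamini-Hochberg adjustment over all 11603 genes. Irf1 lay 4.20 ± 0.56 log2 units above the median (SE, adjusted p = 6.52e-13, limma), Irf2 3.86 ± 0.60 (adjusted p = 8.49e-10, limma), Irf5 3.75 ± 0.61 (adjusted p = 6.72e-09, limma) and Irf9 2.14 ± 0.86 (adjusted p = 0.0476, limma), each above it in 3 of 3 mice. Irf4 lay below it in 3 of 3 mice (-6.31 ± 2.41, adjusted p = 0.0347, limma). Irf4 was among the tested genes through mouse 2 alone. In mice 1 and 3 it was at 0, so its value there is only the added 1. With 0.1 added instead, the difference was -8.53 (adjusted p = 0.0843, limma). Irf8 (1.19 ± 1.07, adjusted p = 0.431, limma) was above the median in 3 of 3 mice, Irf7 (0.94 ± 1.14, adjusted p = 0.553, limma) in 2 of 3 and Irf3 (-0.42 ± 1.60, adjusted p = 0.858, limma) in 1 of 3, and none of these passed the test.

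These calls are read against a background in which 22.7% of tested genes were called above and 4.32% below. The limma fit gave each gene the spread of genes at its level. With a spread prior that does not follow the level, no gene was called in either direction (2186 above and 1990 below at an unadjusted p under 0.05), and the adjusted p of Irf1, Irf2 and Irf5 was 0.0758, 0.0773 and 0.0776 (limma). Over 9 alternatives the adjusted p of these 3 genes reached no higher value. Without a filter on low values, which lowers the median gene, Irf1, Irf2, Irf5 and Irf9 lay 5.44, 5.10, 4.99 and 3.38 log2 units above it and Irf4 at -5.07. The calls of Irf9 and Irf4 were lost with the variance prior without a trend and with a pseudocount of 0.1. That of Irf9 was also lost without mouse 1 (log2 difference 1.31) and without mouse 2 (2.35), and that of Irf4 without mouse 1 (-5.23) and without mouse 3 (-5.21), with adjusted p over 9 alternatives of up to 0.518 for Irf9 and 0.200 for Irf4 (limma). Irf7 was called above the median without mouse 1 (2.36, adjusted p = 0.0260, limma).

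**Figure D2:**
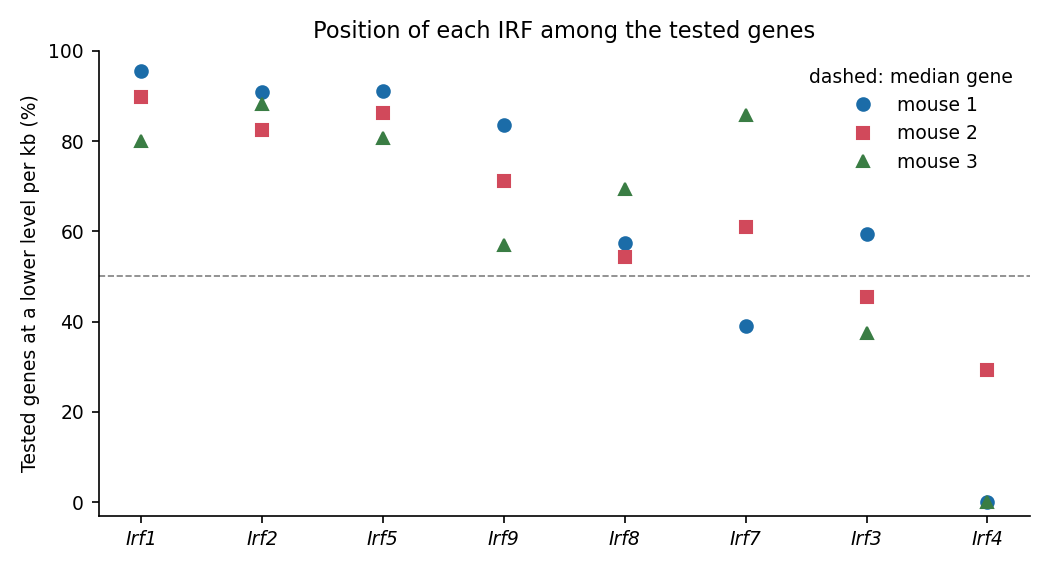
Percentage of the 11603 tested genes that had a lower level per kb than each IRF, for mice 1 to 3, with the median gene as a dashed line. Irf1, Irf2 and Irf5 exceed at least 79.9% of genes in every mouse, whereas Irf7 exceeds 39.0%, 60.9% and 85.8% in mice 1, 2 and 3.

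Irf1 and Irf2 are an activator and its long-known antagonist, since IRF2 can occupy the same elements as IRF1 and block them. Irf1 had 15142, 4897 and 2767 normalised reads in mice 1, 2 and 3 (7602 ± 6616, SD, n = 3). Irf2 had 14445, 4771 and 9593 (9603 ± 4837). Mouse 1 was the highest for both, and the members parted in mouse 3, where Irf2 was high and Irf1 at its lowest. Within a library the Irf1/Irf2 ratio per kb was 0.96, 0.93 and -0.90 on the log2 scale, with a mean of 0.33 ± 0.61 (SE, adjusted p = 0.611, limma), above 0 in 2 of 3 mice. Of the 11602 other genes tested, 580 were called above Irf2, which is 5.0%, and 76.6% below it. Gm17334 on the opposite strand shares 3.40% of the Irf1 exons and was at 25.8, 0 and 0 normalised reads. By reads alone, without division by exon length, the mean ratio turned round to -0.56.

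Irf5, which acts downstream of the adaptor MyD88 and is tied to inflammatory cytokine genes, had 5785, 2569 and 2131 normalised reads in mice 1, 2 and 3 (3495 ± 1995, SD, n = 3). Its highest mouse was 2.72-fold above its lowest, close to the 2.76-fold of Irf8 and the 3.03-fold of Irf2. The SD of its log2 level was 0.77, beside a median of 1.08 over the 2405 tested genes with a mean within 2-fold of its own. Of its exon bases, 14.1% are shared with Tnpo3 on the opposite strand (242, 689 and 966 normalised reads), whose part in the values of Irf5 was not tested.

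Irf8 and Irf4 are the members that bind DNA weakly alone and work with PU.1, the product of Spi1. IRF8 is required for monocytes and for the dendritic cells that cross-present antigen, and IRF4 acts in B cells, plasma cells, T cells and other dendritic cells. Irf8 had 1017, 885 and 2440.05 normalised reads in mice 1, 2 and 3 (1447 ± 862, SD, n = 3). It was highest in mouse 3, and mice 1 and 2 lay close together. Its log2 SD of 0.79 was smaller than the median of 1.87 over the 3267 genes within 2-fold of its mean.

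Irf4 was at 0 in mice 1 and 3 and at 123 normalised reads in mouse 2, from 222 reads (95% exact Poisson interval 108 to 141 normalised reads). Mouse 2 was at least 50.9-fold above the floor of 3 reads in the other mice. Irf4 passed the filter on low values through mouse 2 alone. That library also had the highest sum of kidney epithelial markers, whose part in the value of Irf4 was not tested. In bulk RNA, fewer cells carrying a transcript and less transcript per cell cannot be told apart.

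Irf8 exceeded Irf4 per kb at least 292-fold in mouse 1 and at least 802-fold in mouse 3, against the floor of 3 reads per library, and 4.99-fold in mouse 2. Irf5 exceeded Irf4 at least 4035-fold, 35.2-fold and at least 1701-fold in mice 1, 2 and 3. The fitted log2 ratios, which depend on the added 1 where Irf4 was at 0, were 7.50 ± 3.18 for Irf8/Irf4 (SE, adjusted p = 0.0966, limma) and 10.06 ± 3.19 for Irf5/Irf4 (adjusted p = 0.0523, limma), both above 0 in 3 of 3 mice and neither past the test. Of the tested genes, 10.1% were called above Irf4 and 0.0259% below it. Without mouse 2 both ratios passed (10.10, adjusted p = 0.00476 and 12.53, adjusted p = 0.00139, limma). Irf4 was at 0 in mice 1 and 3, so the denominator there was only the added 1. In that setting 5242 of 11602 genes were called above Irf4, and the passes are not read as a result. The adjusted p over 9 alternatives ran from 0.00476 to 0.451 and from 0.00139 to 0.451, lowest without mouse 2. The p is adjusted over all genes of the fit on each denominator, and 6 ratios were looked at in all.

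Spi1 was far above Irf8. It had 6315, 4964 and 6496 normalised reads in mice 1, 2 and 3. The Irf8/Spi1 log2 ratio per kb, by mouse in that order, was -4.02, -3.88 and -2.80 (mean -3.57 ± 0.93, SE, adjusted p = 0.00628, limma), which makes Spi1 11.8-fold higher per kb of exon. The size depends on the length used: the log2 ratio was -2.18 without division by length and -2.95 with the longest transcript. The background is heavy here, as 88.5% of tested genes were called below Spi1 and 3.62% above it. Without mouse 2 the ratio of -3.41 missed the threshold (adjusted p = 0.0588, limma), the highest of 9 alternatives, of which the lowest gave 0.00476.

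**Figure D3:**
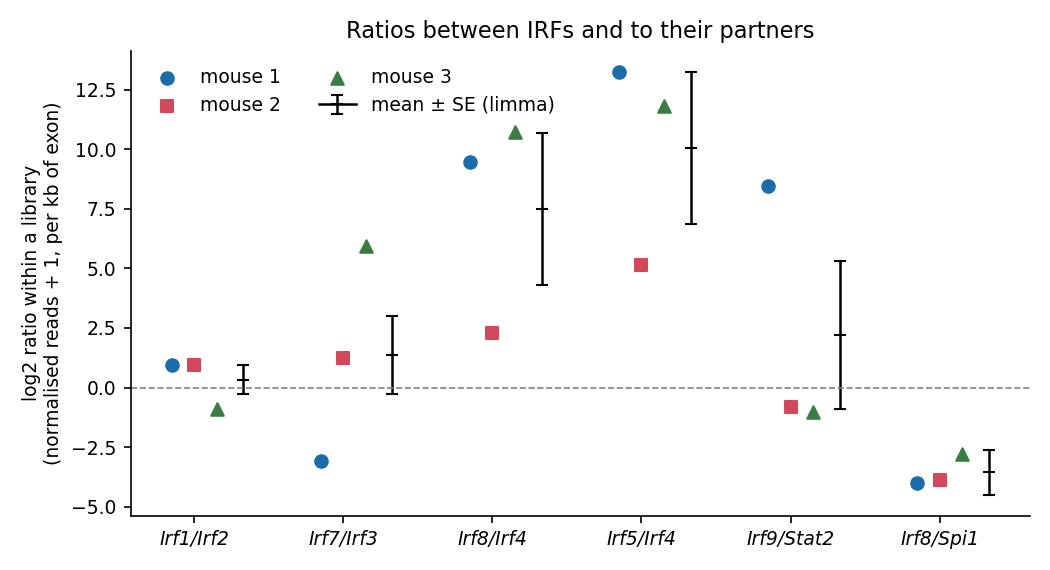
Log2 ratios within each library of 6 pairs chosen by role, from log2(normalised reads + 1) per kb of exon. Points are mice 1 to 3 and the black mark is the mean with the SE from limma. The Irf8/Spi1 ratio lies between -4.02 and -2.80 in all mice, while Irf7/Irf3 runs from -3.10 to 5.94.

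Markers of other cells that use IRF8 and IRF4 were found at mixed levels. Of the conventional dendritic cell markers (7 of 8 found), Clec9a was at 3421, 1330.3 and 1462 and Xcr1 at 534, 2.77 and 407 normalised reads in mice 1, 2 and 3. Dpp4 was at 38.7, 751 and 2228, highest in mouse 3, where Clec9a was not, while Flt3 and Zbtb46 did not exceed 16.2 in any mouse and Ccr7 and Cd209a were at 0 throughout. The summed level of this list was 3998, 2084 and 4113. The plasmacytoid list (2 of 5 found, without its defining Siglech) summed to 3453, 8827 and 1478, of which Tcf4 gave 3297, 5029 and 1426 and Klk1, a kallikrein also made in kidney tubules, 156, 3798 and 52.2. Klk1 was thus highest in mouse 2, as were 6 of the 7 kidney epithelial markers, Umod being highest in mouse 3. Of the B and plasma cell markers (2 of 7 found), Ighm was at 20532, 5363 and 3283 and Cd79b at 227, 3940 and 6359, with a sum of 20758 in mouse 1, 9303 in mouse 2 and 9642 in mouse 3. The part of such cells in the levels of Irf4 and Irf8 was not tested.

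Irf3 and Irf7 are the pair that launches interferon genes after a sensor fires, IRF3 being made constantly and IRF7 being itself induced by interferon. Irf7 had 73.4, 668 and 4053 normalised reads in mice 1, 2 and 3 (1598 ± 2147, SD, n = 3). Irf3 had 581, 257 and 59.2 (299 ± 263). The 2 genes ran in opposite order over the mice: mouse 3 had the most Irf7 and the least Irf3, and mouse 1 the reverse. The highest mouse was 55.2-fold above the lowest for Irf7 and 9.81-fold for Irf3.

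The Irf7/Irf3 log2 ratio per kb was -3.10, 1.24 and 5.94, with a mean of 1.36 ± 1.64 (SE, adjusted p = 0.609, limma), above 0 in 2 of 3 mice. Of the tested genes, 14.9% were called above Irf3 and 1.15% below it. Without mouse 3 the mean turned to -0.93. The log2 SD of Irf7 was 2.89, beside a median of 1.74 over the 3234 genes within 2-fold of its mean, and that of Irf3 was 1.66, beside 3.62 over 2677 genes. Neighbouring genes that share exon bases on the opposite strand moved with both: Phrf1 (1.19% of the Irf7 exons) was at 1.61, 148 and 596 normalised reads, and Bcl2l12 (2.56% of the Irf3 exons) at 964, 6.10 and 0.705 in mice 1, 2 and 3. Their part in the values of Irf7 and Irf3 was not tested.

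Irf9 encodes the DNA-binding part of the complex ISGF3, which also holds STAT2 and carries the signal of type I interferon to its target genes. It had 5434, 1684 and 769 normalised reads in mice 1, 2 and 3 (2629 ± 2472, SD, n = 3), with mouse 1 the highest and a 7.07-fold range. Its partner Stat2 was at 16.1, 3228 and 1713, so that Irf9 was highest and Stat2 lowest in mouse 1. The Irf9/Stat2 log2 ratio per kb was 8.45, -0.80 and -1.02 (mean 2.21 ± 3.12, SE, adjusted p = 0.815, limma), above 0 in 1 of 3 mice, and without mouse 1 the mean turned to -0.91. Against Stat2, limma called 0 genes above and 0 below, with 205 above and 321 below at an unadjusted p under 0.05, and with the prior without a trend 18 above and 0 below. Of the Irf9 exon bases, 2.28% are shared with Rnf31 on the same strand, which was at 0, 0 and 159 normalised reads.

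The members fell into different patterns over the mice. Of the 8 genes, 5 were highest in mouse 1 (Irf1, Irf2, Irf3, Irf5 and Irf9), 1 in mouse 2 (Irf4) and 2 in mouse 3 (Irf7 and Irf8), where 33.9%, 34.0% and 32.1% of the tested genes were highest in mice 1, 2 and 3. The 10 macrophage markers were split much alike, with 7, 1 and 2 highest in mice 1, 2 and 3, so the split is not particular to the IRFs. The family summed to 9094, 3476 and 4306 normalised reads per kb. Irf1 gave 41.9% of that sum in mouse 1 and 35.4% in mouse 2, whereas in mouse 3 Irf2 gave 30.1% and Irf7 24.9%. The highest mouse was 10-fold or more above the lowest for 2 of 8 members, Irf4 and Irf7, against 61.0% of tested genes. That share is not matched for level. Beside genes within 2-fold of its mean, Irf1 had a log2 SD of 1.25 against a median of 0.76. The same held for Irf2 (0.81 against 0.69), Irf9 (1.42 against 1.28) and Irf4 (4.02 against 3.32), and for Irf7. For Irf3, Irf5 and Irf8 the SD was below the median.

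**Figure D4:**
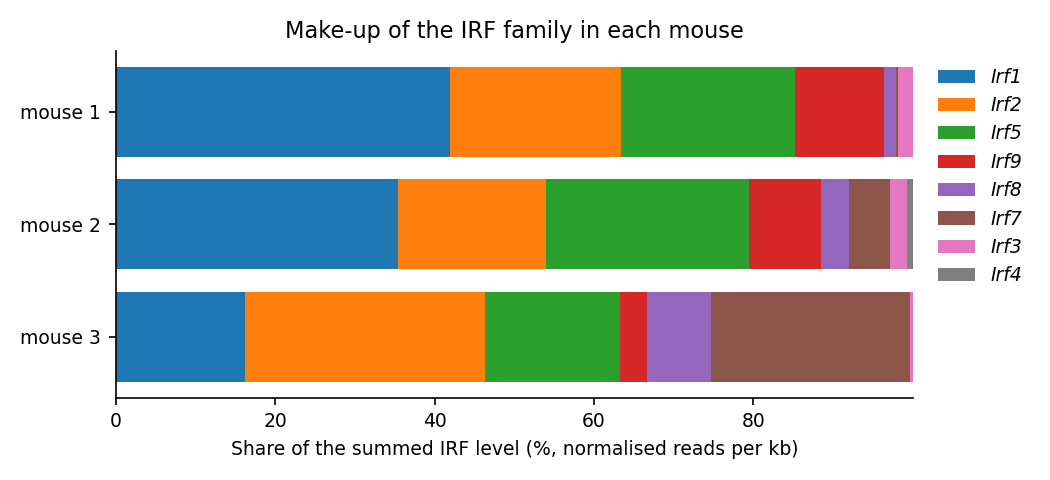
Share of each IRF in the summed level of the 8 genes, in percent of normalised reads per kb of exon, for mice 1 to 3. Irf7 takes 0.214% in mouse 1, 5.09% in mouse 2 and 24.9% in mouse 3, while Irf1 takes 41.9%, 35.4% and 16.2%.

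Among members, Irf1 and Irf9 had the most similar profile, with a Euclidean distance of 0.279 between their log2 deviations over 3 mice, and Irf4 and Irf7 the least (6.81). Over the whole table, Dus1l was nearest to Irf1 (0.0222), Hp1bp3 to Irf2 (0.00743), Mllt6 to Irf5 (0.0260), Tifab to Irf8 (0.0168), Fastkd3 to Irf7 (0.0942), Impact to Irf3 (0.0129), Yars2 to Irf4 (0.120) and Gm26740 to Irf9 (0.0262), among genes with a mean of 100 or more. The next in line were Apeh, Arhgef2, Pdcd11, Pdcd5, Rgl2, 1110038F14Rik, 9630010A21Rik and Sdha in the same order. Such nearness rests on 3 points per gene and is a description only.

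The sensors and kinases that feed IRF3, IRF5 and IRF7 were present at uneven levels. Of 20 such genes, all listed and 19 tested, 7 were called above the library median and none below (limma, adjusted p under 0.05), and 12 passed in neither direction, against 22.7% of all tested genes called above and 4.32% below. Their median mean level was 1239 normalised reads, beside 560.0 over all tested genes. The highest were Tank, a scaffold of the kinase TBK1, at 19465 ± 4311, Tlr4 at 12640 ± 11280.1, the single-stranded RNA receptor Tlr7 at 9839 ± 2471 and the TBK1 adaptor Azi2 at 7745 ± 6006 (SD, n = 3). The kinase Tbk1 was among the 7, at 6636, 593 and 5018 in mice 1, 2 and 3, while the related Ikbke was at 0 in every mouse. Mouse 3, the one richest in Irf7, was also highest for Myd88 (438, 1023 and 3125), Tlr9 (6.45, 5.55 and 844) and Tlr3 (49.2, 191 and 2281), genes picked out, like Tbk1, after their values were seen. In all, 9 of the 20 genes were highest in mouse 3 and 9 in mouse 1, against 32.1% and 33.9% of all tested genes.

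Partners and cofactors were led by Spi1 (5925 ± 837), the coactivator Ep300 (5398 ± 4176), the IRF2-binding corepressor Irf2bp2 (2850 ± 1876) and the ETS-family repressor Etv6 (2072 ± 2872, SD, n = 3). Of 14 genes, 13 were listed and 11 tested. Spi1, Irf2bp2 and Batf3, which pairs with IRF8 in dendritic cells, were called above the median, none below, and 8 passed in neither direction. These 3 of 11 are near the 22.7% called above over all tested genes, with 4.32% below. The median mean level of the 13 genes was 1652 normalised reads. Batf3 was at 1269, 1794 and 2456 normalised reads in mice 1, 2 and 3. Irf2bp1, related to Irf2bp2 and also picked out after its values were seen, did not exceed 5.65 in any mouse.

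**Figure D5:**
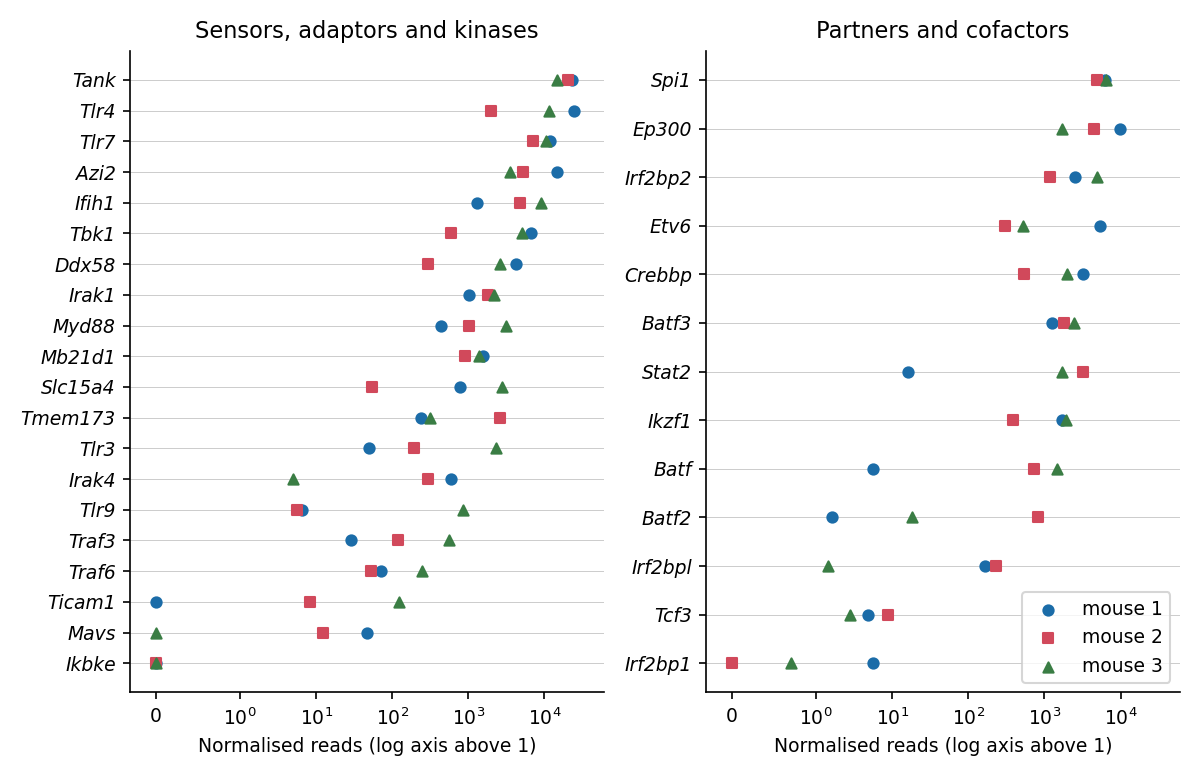
Normalised reads of the genes upstream of IRFs (left) and of their partners and cofactors (right) in mice 1 to 3, on a log axis that turns linear below 1. Tank lies between 14752 and 23209 and Spi1 between 4964 and 6496, whereas Stat2 runs from 16.1 to 3228 and Tlr9 from 5.55 to 844.

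Interferon receptors were well above the median gene, and few interferon genes were listed. Of 7 interferon receptor and JAK kinase genes, 5 were called above the median and none below (22.7% and 4.32% over all tested genes), led by Ifngr1 (25259 ± 4651), Ifnar2 (9039.5 ± 2163), Ifnar1 (5597 ± 4524) and Jak1 (4632 ± 1778, SD, n = 3). Tyk2, which serves the type I receptor and was picked out after its values were seen, was at 41.1, 305 and 605 in mice 1, 2 and 3. Of 17 interferon genes, 3 were listed: Ifna2 and Ifna4 were at 0 in every mouse, and Ifnb1, the target of IRF3, was above the floor of 3 reads in mouse 2 alone (156 normalised reads). The other 14 were not analysed here.

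Target genes of the IRFs were found at high and at very low levels. Of 20 ISGF3 targets, 10 were called above the library median, none below and 10 passed in neither direction, with a median mean level of 1739. Over all tested genes 22.7% were called above and 4.32% below, and a count of none below among so few genes is near that share. The highest were Rtp4 (30664 ± 10293.5), the apoptosis factor Xaf1 (8013 ± 2337), Ifi35 (4556 ± 2064) and Ifit3 (4508 ± 2303, SD, n = 3). Of 18 targets of IRF1 and IRF8, 17 were listed and 16 tested, 9 were called above, none below and 7 passed in neither direction, beside the same shares over all tested genes, with a median mean level of 3329. B2m (629891 ± 94932), Cst3 (290913 ± 24361), the NADPH oxidase subunit Cybb (47154 ± 15301) and the immunoproteasome subunit Psmb8 (20154 ± 6431) led. Of 5 cytokine targets of IRF5, 3 were listed: Il6 and Il12b were at 0 in every mouse and Tnf was at 12.1, 218 and 59.9 in mice 1, 2 and 3.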

How the data were processed

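The deposited table gives a normalised signal per gene and mouse. The authors used HTSeq 0.5.4 for counting, DESeq 1.18.0 for scaling and build mm9, per the submitters' processing notes. For aligner, annotation and row filter the entry is: not given in the sources used here. Every library's lowest deposited value is 1, and after subtraction of 1, which preceded all steps, 100% of values were whole numbers of one unit in each library (within 0.05 of that unit), taken as 1 read.

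Exon lengths (union of exons) came from GENCODE M21 by gene identifier, for 99.6% of genes. Tests used limma 3.58.1 in R 4.3.3 with an intercept, a pseudocount of 1 and a variance trend, on genes with a mean of at least 10. Only the level fit was also run on simulated data, which were independent normal values. Their spread followed the level, as the variance trend assumes, so that run cannot judge the trend, counts of 0 or the ratios. Other steps used Python 3.11.15, numpy 2.4.6, pandas 2.3.3, scipy 1.17.1 and matplotlib 3.10.9. An exact sign-flip test of 3 mice cannot give a two-sided p below 0.25.

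Members, lists, ratios and the rule for named genes (all members, the 4 highest genes of a list, those at 0 throughout, and the 2 nearest profiles per member, with cell type lists given mainly as sums) were chosen with earlier results of these data known. Alternatives were another pseudocount, no filter, no length or another length, no subtraction, another variance prior, equal library totals and leaving out each mouse. A planned count test was not run, and proteins were not analysed here. A gene of the partner list is not reported here and was left out of that list's counts. In the level fit and the ratios to Irf2, Irf3 and Stat2 the trend's prior had infinite degrees of freedom, so SEs and p-values rest on the spread between 3 mice of genes at the same level, amplification included, and not on the gene's own. In the ratios to Irf4 and Spi1 the prior had 14.9 and 18.6 degrees of freedom, so a gene's own spread weighed little. Each ratio fit subtracts the same denominator from every gene, so all genes share its noise. That noise is known from 3 mice only, whatever the prior, and the p-values of the ratios may be too small.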

Additional observations from a re-analysis of the deposited data

How the results depend on the processing

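No paired analysis was possible because the series holds a single group. The 2630 genes above the library median moved by less than 1.5 times except with a variance prior without trend, which called 0 above and 0 below. The 501 genes below it became 60 with a pseudocount of 0.1, 2382 without a filter, and 680 to 1573 on leaving out a mouse. Leaving out a mouse gave log2 ratios of 5.89 to 10.10 for Irf8/Irf4, 8.47 to 12.53 for Irf5/Irf4, -3.95 to -3.34 for Irf8/Spi1, 0.018 to 0.95 for Irf1/Irf2, -0.93 to 3.59 for Irf7/Irf3 and -0.91 to 3.82 for Irf9/Stat2. Irf1/Irf2 reversed to -0.56 without division by length. Irf5/Irf4 passed the test with the prior without trend (10.06, adjusted p = 0.0400, limma) and with the length of the longest transcript (10.40, adjusted p = 0.0379, limma), the last chosen after seeing the data. In these settings 2800 and 2201 of 11602 genes were called above Irf4, against 1174 in the main fit. Relative to the library median, Irf3 reversed to 0.82 without a filter, and leaving out a mouse gave -1.23 to 0.42 for Irf3 and -0.51 to 2.36 for Irf7. The causes were not tested, beyond the fewer mice. Mean levels of the 8 members moved by less than 1 SD under equal library totals and without the subtraction of 1. That SD ran from 50.4% of the mean for Irf2 to 173% for Irf4, so the limit is loose and shows little. Depth limits the 0 of Irf4 in mice 1 and 3 to at most 3 reads. A planned edgeR test on reads was not run.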

Other observations

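Mouse 2 was the library with Irf4, and other genes of the interferon system were above 20 normalised reads there alone. These genes were picked out after their values were seen, and the share of all genes with this pattern was not counted. Mouse 2 had the fewest listed genes at 0 (1958, against 2792 in mouse 1 and 2928 in mouse 3). Yars2, the nearest profile to Irf4, had the pattern too (2.42, 463 and 2.82 in mice 1, 2 and 3). In normalised reads of mice 1, 2 and 3, Ifnb1 was at 0.806, 156 and 0, and among ISGF3 targets Isg15 was at 0, 100.5 and 0.705, Mx2 at 0, 554 and 2.82, Cmpk2 at 5.65, 334 and 0.705, and Oasl1 at 0, 41.6 and 0. Batf2, which is induced by interferon and can pair with IRFs, was at 1.61, 823 and 18.3. Other targets were low in mouse 2: the guanylate-binding protein Gbp2 was at 5294, 13.3 and 4679.9 and Mx1 at 3364, 100.5 and 2141. Of the 20 ISGF3 targets, 9 were highest in mouse 2, 5 in mouse 1 and 6 in mouse 3. Over all tested genes 34.0%, 33.9% and 32.1% were highest in mice 2, 1 and 3, so the counts are not read as a trait of the targets. Mouse 2 also had the highest summed kidney epithelial markers (18841, against 4248 in mouse 1 and 2045 in mouse 3), and the part of this in the values above was not tested.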
